A study of Mus musculus with 36 samples.

Results

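The immediate early activity genes described here were 10 genes chosen by symbol in the gene count table: Fos, Fosb, Junb, Egr1, Egr2, Egr3, Arc, Npas4, Nr4a1 and Nr4a3. They were 10 of 55492 rows, and all 10 passed the filter on low counts (a mean count above 5 over 36 libraries), which left 20355 genes tested. The RNA came from dissociated embryonic day 18 mouse cortical cells (C57EDCX, obtained commercially), grown for 10 days and then kept for 72 h in one of 3 media. Control cultures received fresh growth medium, DEX cultures received dexamethasone, a glucocorticoid receptor agonist, at 1 µM, and DEX+RU-486 cultures received 1 µM DEX together with 1 µM RU-486 (mifepristone), a glucocorticoid receptor antagonist. No vehicle for the control cultures is given in the sources used here. Each group held 12 libraries, 6 in each of 2 batches, and libraries are named below by the number in their labels. What a batch stands for is not given, and neither is whether the replicates were separate cultures, so that p-values measure the spread between these libraries. In bulk RNA, fewer cells of a type and less RNA per cell cannot be told apart.

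Depth ran from 12.1 to 82.4 M counts per library (M stands for mega), and the members had between 43 and 6201 counts in a library. RNA integrity (the RIN of the labels, in which low values mean degraded RNA) was below 6 in 8 libraries. Those 8 were DEX library 12 and DEX+RU-486 library 18 of batch 1, and 2 libraries of each group in batch 2, and the comparisons below rest on the other 28. In batch 1 the groups differed in both quality and depth. Control libraries had a RIN of 7.8 to 9.2 and 24.2 to 82.4 M counts, DEX libraries 6.2 to 7.8 and 12.1 to 15.1 M, and DEX+RU-486 libraries 6.6 to 7.9 and 17.4 to 26.7 M. In batch 2 the RIN ranges were closer, at 7.4 to 8.0 in controls, 7.4 to 7.7 in DEX and 7.6 to 8.7 in DEX+RU-486. Neuronal markers were present, and the 9 of that list (Rbfox3, Tubb3, Map2 and others) summed to 1856 to 3265 counts per M library counts (CPM) in the batch 1 libraries of controls and DEX.

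On GRCm38 (GENCODE M21), all 10 were annotated as protein coding. The AP-1 genes were Fos (ENSMUSG00000021250, chr12:85473890-85477273, plus strand), Fosb (ENSMUSG00000003545, chr7:19302696-19310051, minus) and Junb (ENSMUSG00000052837, chr8:84974484-84978718, minus). Junb overlapped Prdx2 on the other strand, and whether counting used strand is not stated, so reads of these 2 genes could not be told apart there. The early growth response genes were Egr1 (ENSMUSG00000038418, chr18:34859823-34864984, plus), Egr2 (ENSMUSG00000037868, chr10:67535475-67542188, plus) and Egr3 (ENSMUSG00000033730, chr14:70077203-70082614, plus). The others were Arc (ENSMUSG00000022602, chr15:74669083-74672570, minus), Npas4 (ENSMUSG00000045903, chr19:4984355-4990316, minus), Nr4a1 (ENSMUSG00000023034, chr15:101254269-101274795, plus) and Nr4a3 (ENSMUSG00000028341, chr4:48045153-48086447, plus).

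Immediate early genes are transcribed within minutes of synaptic activity, without new protein synthesis, when calcium entry and kinase signalling act on factors such as CREB, SRF and MEF2 that already sit at their promoters. Most encode transcription factors that drive a later wave of genes, while Arc acts directly at the synapse, and their messages are short-lived. They are widely used as markers of recently active neurons, and the same genes also respond to growth factors, handling and cell stress.

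Promoter stretches of members that rose in batch 1 are shown because they hold letters known from the sites of CREB and SRF. Windows of 250 bases before a transcription start were taken from RefSeq (GRCm38.p6), and 7 of the 10 members had one, with 5 windows for Egr2. The cyclic AMP response element (CRE) half-site TGACG, searched on both strands, was present for 7 of 7 members and in 17.8% of 32851 windows. The full CRE TGACGTCA, which contains the half-site, was in none of the 7 and in 1.55% of windows, and the AP-1 site TGANTCA was likewise in none of the 7 and in 6.75% of windows. The EGR site GCGNGGGCG was found for Fosb and Nr4a1 (4.7% of windows), and the CArG box of the serum response element for Egr2 (1.47% of windows). A match is a description of letters and not of binding. Each sequence below is 100 bases read 5′ to 3′ on the gene's strand, with matches to the CRE half-site and the CArG box in capitals. The EGR sites of Fosb and Nr4a1 also lie in these stretches and are left in lower case. For Fos (chr12:85473790-85473889, plus strand) and Fosb (chr7:19310052-19310151, minus strand) the stretch lies before the gene and the capitals mark the CRE half-site. For Egr2 (chr10:67537769-67537868, plus strand) and Nr4a1 (chr15:101266746-101266845, plus strand) it lies within the gene, between exons. In Egr2 the capitals mark first the CArG box and then the half-site on the opposite strand, and in Nr4a1 they mark 2 half-sites on the opposite strand.
Fos: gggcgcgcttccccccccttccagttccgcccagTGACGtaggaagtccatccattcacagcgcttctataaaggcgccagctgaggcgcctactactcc
Fosb: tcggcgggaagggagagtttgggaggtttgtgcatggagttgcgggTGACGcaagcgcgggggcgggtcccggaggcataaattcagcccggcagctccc
Egr2: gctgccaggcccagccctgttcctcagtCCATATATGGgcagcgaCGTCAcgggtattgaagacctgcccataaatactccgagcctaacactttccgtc
Nr4a1: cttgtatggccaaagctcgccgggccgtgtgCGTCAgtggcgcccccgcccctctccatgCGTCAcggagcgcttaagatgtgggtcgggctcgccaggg

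The first comparison asked whether DEX changed these genes against control, batch by batch. In batch 1, 8 of the 10 members were higher in DEX libraries by 2.30- to 5.83-fold: Fos, Fosb, Junb, Egr1, Egr2, Arc, Npas4 and Nr4a1 (edgeR quasi-likelihood test, Benjamini-Hochberg adjusted p from 0.000128 to 0.00697). None was lower, and 8.82% of all tested genes were called higher in that comparison. The median log2 fold change was 1.57 over the 10 members and 0.014 over all genes tested. When RIN was entered as a covariate none of the 8 was called, while 8.62% of all genes were called in either direction, so DEX and the lower RIN of the DEX libraries in batch 1 cannot be told apart for these genes. When log2 depth was entered none of the 8 was called either, but that fit called only 0.393% of all genes. The log2 changes of the 8 then ran from 0.74 to 2.12, and the median over the 10 members fell from 1.57 to 0.8454.

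**Figure D1:**
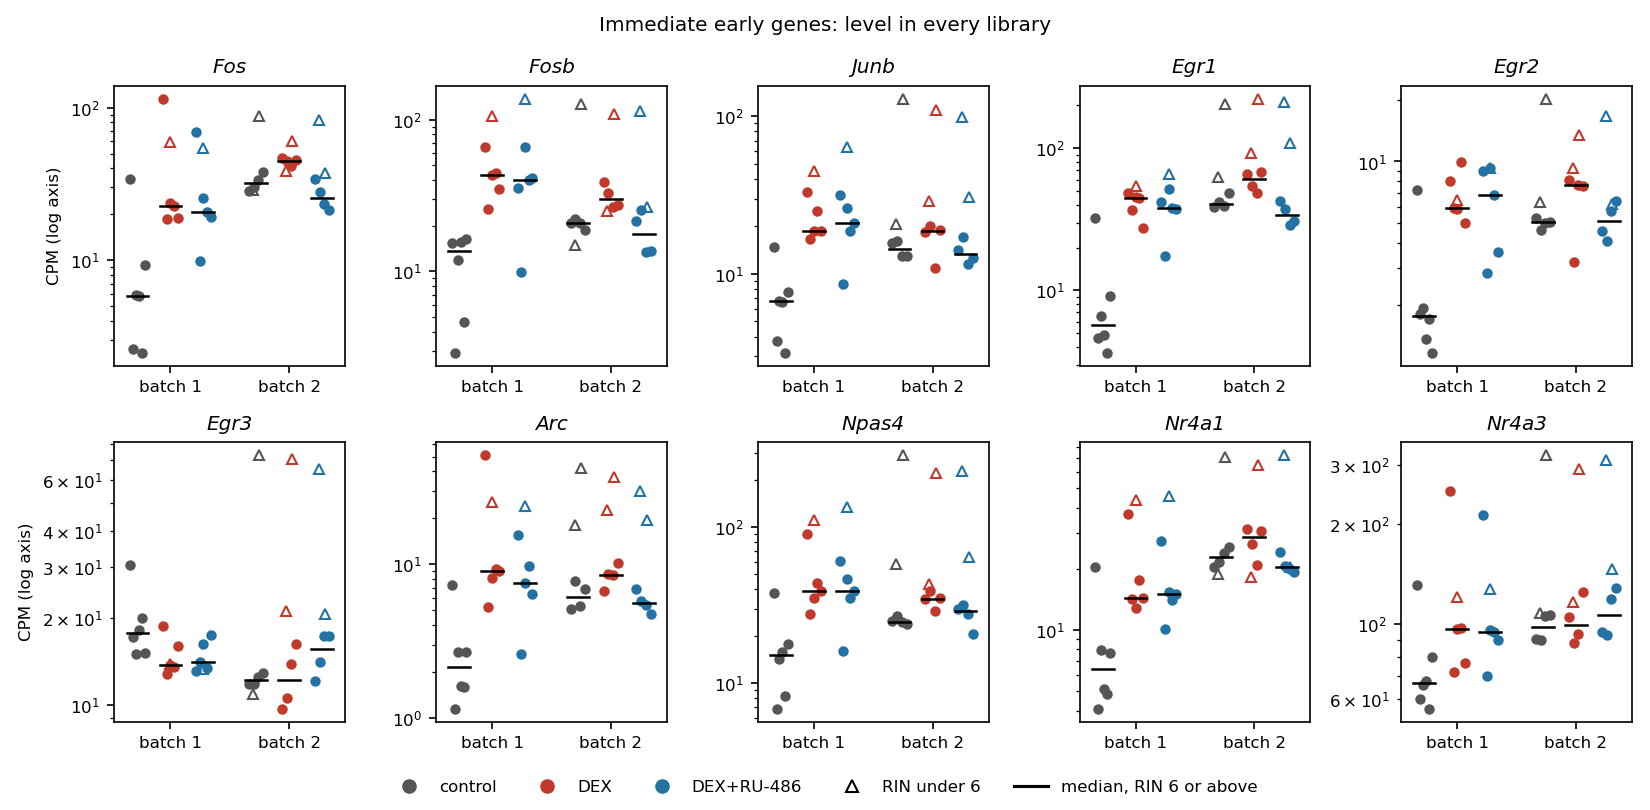
Level of each gene in every library (CPM, log axis), by batch and treatment; filled points are libraries with a RIN of 6 or above, open triangles those below 6, and bars the medians of the filled points. In batch 1 the DEX points of 8 genes lie above at least 5 of the 6 control points, and in batch 2 the 3 groups lie close together apart from the triangles.

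Fos, whose product joins Jun proteins in the AP-1 factor, had a lowest, median and highest level of 2.47, 5.85 and 34.1 CPM in the batch 1 controls. The DEX libraries 7 to 11 had 114.4, 18.5, 23.7, 22.6 and 19.01 CPM. The ranges overlapped through control library 1, the control with the lowest RIN (7.8), and DEX library 7, with the lowest RIN of the DEX libraries used (6.2), stood far above its group. The log2 fold change was 1.98 ± 0.53 (SE, n = 5 DEX and 6 control libraries, edgeR quasi-likelihood test, adjusted p = 0.00697), and without DEX library 7 it was 1.09 with an adjusted p of 0.103. Fosb, a Fos relative that also enters AP-1, ran from 2.90 to 16.4 CPM in controls with a median of 13.6, against 66.3, 25.9, 43.4, 44.7 and 34.9 CPM in DEX. Junb, a Jun protein that pairs with Fos proteins, ran from 3.16 to 14.9 CPM with a median of 6.69, against 33.1, 16.7, 18.8, 25.1 and 18.8 CPM in DEX. For Fosb and Junb the lowest DEX library exceeded the highest control, which held for 4.29% of all genes tested. Their log2 fold changes were 1.96 ± 0.36 (adjusted p = 0.000165) and 1.66 ± 0.29 (adjusted p = 0.000128) in the same edgeR fit.

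Egr1, a zinc finger factor used as a marker of neuronal activity, had 3.64, 5.73 and 32.5 CPM as the lowest, median and highest control levels and 48.2, 36.7, 45.5, 44.7 and 27.5 CPM in DEX. It rose by 1.99 ± 0.36 on the log2 scale (edgeR, adjusted p = 0.00017), or 3.97-fold. Egr2, the member better known for its part in myelinating Schwann cells, was the lowest of the 10 per length of transcript in the controls. Its controls held 1.16, 1.75 and 7.26 CPM and the DEX libraries 8.07, 5.95, 5.84, 9.99 and 4.999 CPM, a log2 fold change of 1.46 ± 0.37 (edgeR, adjusted p = 0.00401). For both genes 5 of 6 controls lay below every DEX library, and control library 1 overlapped them. Egr3, the third zinc finger factor, went the other way in its fitted value: controls ran from 14.9 to 30.4 CPM with a median of 17.7, DEX libraries had 18.8, 12.8, 13.7, 13.5 and 15.99 CPM, and the log2 fold change of -0.37 ± 0.16 was not called (edgeR, adjusted p = 0.0957).

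Arc, a cytoskeleton-associated protein that promotes removal of AMPA receptors from synapses, had the largest fitted change of the 10 in the main fit. Controls held 1.14, 2.15 and 7.31 CPM as the lowest, median and highest values, and DEX libraries 51.2, 5.27, 8.12, 9.24 and 9.07 CPM. The log2 fold change was 2.54 ± 0.48 (edgeR, adjusted p = 0.00022), and it rested in part on DEX library 7. It was 1.51 when only libraries with a RIN of 7 or above were kept, where the largest of the 10 was 1.94. Npas4, a factor induced by calcium entry in neurons, had 6.81, 15.1 and 38.1 CPM in controls against 90.1, 27.7, 34.95, 44.2 and 38.8 CPM in DEX, and rose by 1.48 ± 0.32 (edgeR, adjusted p = 0.00107). Nr4a1, an orphan nuclear receptor, had 4.06, 6.39 and 20.3 CPM in controls against 37.1, 14.2, 12.8, 17.5 and 14.4 CPM in DEX, and rose by 1.203 ± 0.31 (edgeR, adjusted p = 0.00506). Nr4a3, a second receptor of that family and the most abundant member per length in the controls of both batches, had 55.8, 66.9 and 130.9 CPM in controls and 249.4, 71.9, 97.0, 97.4 and 76.4 CPM in DEX, and its log2 fold change of 0.63 ± 0.27 was not called (edgeR, adjusted p = 0.0887). With control library 1 set aside, 8 of the 10 members, those called above, were higher in every DEX library than in any of the other 5 controls, as were 5.62% of all genes. Library 1 was the control that overlapped for several of these members, so this count follows in part from which library was set aside. The share of all genes was not selected in that way. Without control library 1 edgeR called 9 members higher, the ninth being Nr4a3, and 9.72% of genes. The median log2 change over the 10 members was then 2.10, against 1.57 with it, and the largest was 3.14, against 2.54.

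In batch 2, DEX libraries were close to controls. All 10 fitted log2 changes were above 0, between 0.05 for Egr3 and 0.62 for Fosb, and none was called (edgeR quasi-likelihood test, adjusted p from 0.518 to 0.931, 0 of 10 with an unadjusted p below 0.05). In that comparison 0.054% of tested genes were called and 13.7% had an unadjusted p below 0.05. Fos was measured at 28.6, 30.1, 33.8 and 37.7 CPM in controls 21 to 24 and at 46.7, 44.7, 41.3 and 45.3 CPM in DEX libraries 27 to 30, so that the groups did not overlap although they differed by 1.38-fold. Egr1 was at 38.7, 41.8, 39.2 and 48.0 CPM in controls and at 65.9, 54.5, 48.1 and 68.3 CPM in DEX. Fosb, with controls from 18.6 to 22.1 CPM and DEX libraries from 26.4 to 38.9 CPM, and Npas4, with controls from 24.1 to 26.9 CPM and DEX libraries from 29.1 to 39.2 CPM, were also higher in each DEX library than in any control. These 4 members compare with 4.47% of all genes without overlap in that direction. Within the groups of batch 2 all 4 had a negative Pearson coefficient with RIN, from -0.477 for Fos to -0.888 for Fosb, of which only Fosb passed after adjustment. Values with RIN as a covariate are not given for this comparison. Junb, Egr2, Egr3, Arc, Nr4a1 and Nr4a3 overlapped. In the same libraries the oligodendrocyte lineage markers summed to 604.2 to 999.3 CPM in DEX against 382.8 to 494.8 CPM in controls, and the astrocyte markers to 44.6 to 65.6 against 33.7 to 44.0 CPM, without overlap for either, and their part in the levels of the members was not tested.

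The fit above shares one estimate of spread per gene between the batches. In a fit of the 12 libraries of batch 2 alone the changes under DEX were nearly identical (0.05 to 0.62), the standard errors fell to between 0.12 and 0.24, and 6 of 10 members had an unadjusted p below 0.05, as did 17.2% of genes. None passed the edgeR test after adjustment, the nearest being Egr1 at 0.0743, Npas4 at 0.0795 and Fos at 0.087, and 0.565% of genes were called.

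In the test of the difference between batches, the fitted DEX change was lower in batch 2 for 9 of 10 members, Egr3 being the exception, with a median difference of -1.18 on the log2 scale. None passed the edgeR test after adjustment (lowest adjusted p = 0.067, for Junb) where 4.25% of genes were called in either direction, and 5 members had an unadjusted p below 0.05, as did 18.7% of genes. Without control library 1, 7 members were called lower (Fos, Junb, Egr1, Egr2, Arc, Npas4 and Nr4a1), where 1.6% of genes were. The limit given under DEX for that choice holds here, so this count follows in part from which library was set aside. Averaged over both batches, the same 8 members as in batch 1 were called higher in DEX, by 0.74 to 1.50 on the log2 scale (edgeR, adjusted p from 0.00134 to 0.0313), where 7.66% of genes were called higher. That average joins a called and an uncalled batch, and it called 0 members when all 36 libraries were used, with 1.73% of genes called in either direction. It also called 0 members with RIN as a covariate, where Fos was at -0.28 and Nr4a1 at -0.069 and 6.78% of genes were called, and 0 with the log2 depth as a covariate, where 0.059% were. Fos was lost from it without DEX library 7 or 27 or control library 21, 22 or 23, and Nr4a1 without DEX library 7 or 27.

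**Figure D2:**
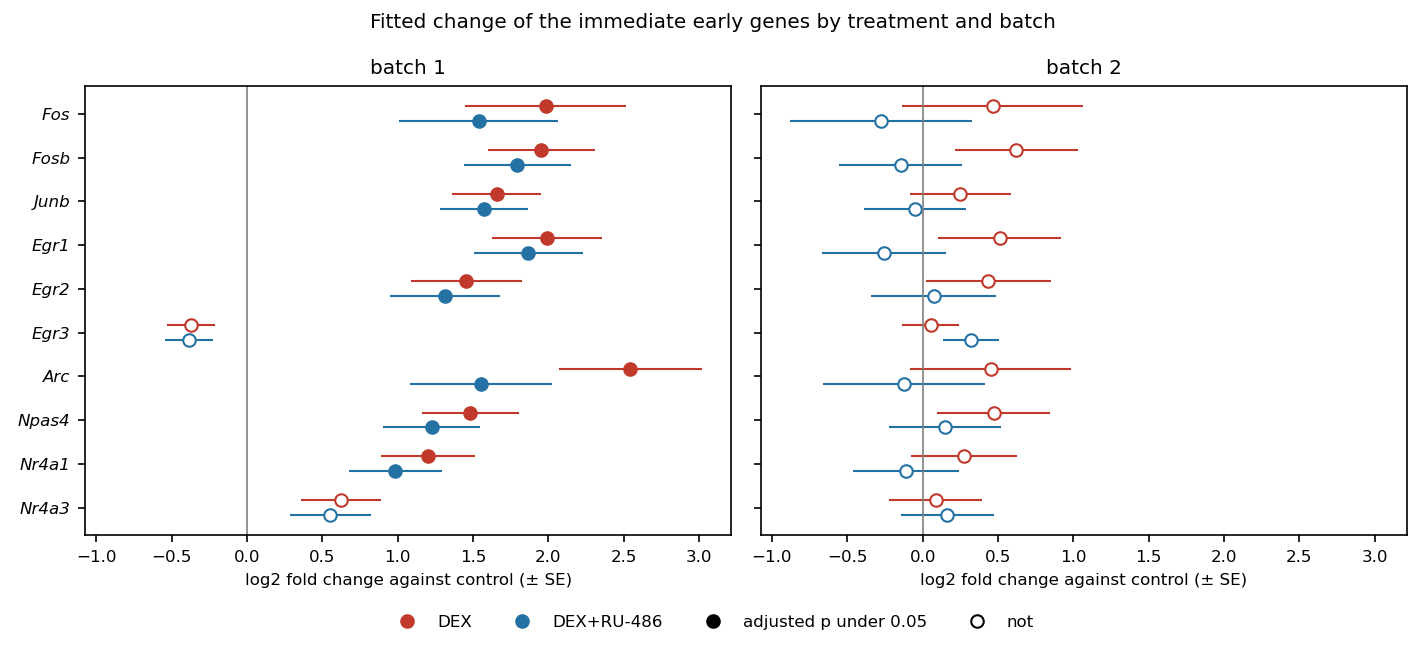
Fitted log2 fold change against control (horizontal axis, ± SE) of each gene for DEX and DEX+RU-486 in batch 1 (left) and batch 2 (right), on 1 shared axis; filled points have an adjusted p below 0.05. In batch 1, 8 genes are filled for each treatment, up to 2.54 for DEX, and in batch 2 none is filled.

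The second comparison asked whether the antagonist altered the response. In batch 1, DEX+RU-486 libraries were higher than controls for the 8 members called under DEX, with log2 fold changes from 0.98 ± 0.31 for Nr4a1 to 1.87 ± 0.36 for Egr1 (SE, n = 5 and 6 libraries, edgeR, adjusted p from 0.00038 to 0.0404), where 7.0% of genes were called higher. None of these 8 calls held with RIN as a covariate (median log2 change over the 10 members -0.10, with 7.33% of genes called in either direction), and Fosb, Junb and Egr1 were called with log2 depth as the covariate (1.98% of genes called higher). Fos was at 69.5, 9.93, 25.5, 20.8 and 19.3 CPM in DEX+RU-486 libraries 13 to 17, a change of 1.54 ± 0.53 (edgeR, adjusted p = 0.0404), and Arc was at 15.5, 2.60, 7.53, 9.67 and 6.39 CPM, a change of 1.55 ± 0.47 (edgeR, adjusted p = 0.0192). Library 13, which had the lowest RIN of these 5 (6.6), was the highest for both genes, and without it Fos, Arc and Nr4a1 were not called. The Fos call was also lost on leaving out library 15 or any of control libraries 2 to 6, and the Nr4a1 call on leaving out control library 2 or 5. No member was free of overlap with the controls (2.44% of genes were). Without control library 1 Fos, Junb, Egr1, Egr2 and Nr4a1 were (3.71% of genes), with the limit given under DEX for that choice.

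DEX+RU-486 and DEX libraries of batch 1 were not separated. All 10 fitted differences were at or below -0.01 on the log2 scale with a median of -0.15, none was called, and 0.0% of genes were. Arc differed most, at -0.99 ± 0.48 (edgeR, p = 0.0496, adjusted p = 0.791), the only member with an unadjusted p below 0.05, as 6.3% of genes had. Comparisons with a shared control or DEX group reuse the same libraries, so their values are set side by side and not related to each other.

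In batch 2, DEX+RU-486 libraries differed little from controls, with log2 changes from -0.28 for Fos to 0.32 for Egr3, 4 of 10 above 0, and no member called (edgeR, adjusted p of at least 0.981, 0 members with an unadjusted p below 0.05, and 0.0% of genes called). The fit of batch 2 alone also called no member, with 0.00491% of genes called, and 1 member and 7.55% of genes had an unadjusted p below 0.05.

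Against DEX, the DEX+RU-486 libraries of batch 2 held less Fos, Fosb and Egr1. Fos was at 33.9, 28.1, 23.3 and 21.4 CPM in DEX+RU-486 libraries 33 to 36 and at 41.3 to 46.7 CPM in DEX. Egr1 was at 42.5, 37.3, 28.8 and 30.6 CPM against 48.1 to 68.3, and Fosb at 21.4, 25.4, 13.4 and 13.7 CPM against 26.4 to 38.9. The groups did not overlap for these 3 members, as for 3.93% of all genes in that direction. The fitted differences were -0.74 ± 0.61 for Fos, -0.77 ± 0.41 for Fosb and -0.77 ± 0.41 for Egr1 (SE, n = 4 libraries each). They were not called in the fit of both batches (edgeR, adjusted p = 0.616, 0.383 and 0.385, with 0 members below an unadjusted 0.05 and 0.383% of genes called). In the fit of batch 2 alone, where the standard errors were 0.13, 0.18 and 0.13, all 3 were called lower (edgeR, adjusted p = 0.0176 for Fos, 0.0467 for Fosb and 0.0176 for Egr1), where 0.811% of genes were called lower. The call in batch 2 thus depended on whether batch 1 entered the estimate of spread. In these libraries the RIN was 7.6 to 8.7 in DEX+RU-486 against 7.4 to 7.7 in DEX, and the summed level of 6 oligodendrocyte lineage genes was 127.3 to 371.4 CPM against 604.2 to 999.3 CPM. The 6 astrocyte markers summed to 37.6 to 42.1 CPM in DEX+RU-486 and to 44.6 to 65.6 CPM in DEX, again without overlap. With RIN as a covariate in the fit of both batches, the differences were 0.42 ± 0.34 for Fos, -0.28 ± 0.36 for Fosb and -0.10 ± 0.32 for Egr1 (SE; edgeR, adjusted p = 0.638, 0.796 and 0.929), so that the sign for Fos turned. The covariate had 1 slope shared by both batches, so these values do not rest on batch 2 alone. Within batch 2 the Pearson coefficient of Fos with RIN was -0.477 and did not pass (exact permutation test, adjusted p = 0.48). The part of the markers in the difference was not tested.

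Averaged over the batches, only Junb was called higher in DEX+RU-486 than in controls, at 0.76 ± 0.22 (edgeR, adjusted p = 0.0314), where 2.65% of genes were called higher. An unadjusted p below 0.05 was found for 5 members and for 22.6% of genes. Junb was called in 21 of 28 fits that left out a library, and without control library 1 the count rose to 7 members, with 3.31% of genes called higher. No member was called between DEX+RU-486 and DEX on average (0.138% of genes in either direction; Arc was the 1 member with an unadjusted p below 0.05, as 11.6% of genes had). The DEX+RU-486 change differed between batches for Egr1, by -2.12 ± 0.55 (edgeR, adjusted p = 0.0396), where 0.639% of genes were called lower. An unadjusted p below 0.05 was found for 9 members and for 15.8% of genes. This Egr1 call was lost in 14 of 28 fits that left out a library, and without control library 1 the count rose to 6 members, with 0.771% of genes called lower. The limit given under DEX for setting aside that control holds for these 6 members and for the 7 above. Between DEX+RU-486 and DEX the batch difference was called for no member (0.00491% of genes, and 0 members at an unadjusted p below 0.05).

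The control libraries themselves differed between batches. Egr1 was higher in batch 2 by 2.02 ± 0.37 on the log2 scale, Fos by 1.68 ± 0.55, Nr4a1 by 1.44 ± 0.32, Junb by 1.01 ± 0.31 and Egr2 by 0.96 ± 0.38 (SE, n = 4 and 6 libraries, edgeR, adjusted p from 0.000142 to 0.0499). In that comparison 14.2% of genes were called higher. Library 1 was the highest batch 1 control for Fos and Egr1, at 34.1 and 32.5 CPM against medians of 5.85 and 5.73 CPM. As a high value in the lower batch, that library makes the fitted differences of Fos and Egr1 smaller, not larger. Egr3 was lower by -0.68 ± 0.17 (edgeR, adjusted p = 0.0032), with 18.9% of genes called lower. Egr2, at the edge of the threshold, was called in 7 of 28 fits that left out a library. Fosb, Arc, Npas4 and Nr4a3 were not called, at 0.87, 1.13, 0.56 and 0.33. For Fos, the batch 2 controls (28.6 to 37.7 CPM) lay above 4 of the 5 batch 1 DEX libraries. All 6 oligodendrocyte lineage genes were also called higher in the batch 2 controls, with summed levels of 382.8 to 494.8 CPM against 57.6 to 269.6 CPM, and the 9 neuronal markers summed to 2046 to 2353 CPM against 2497 to 3265 CPM in batch 1, without overlap. The RIN was 7.4 to 8.0 in the batch 2 controls and 7.8 to 9.2 in those of batch 1. With RIN as a covariate, 3 members were called in place of 6 (edgeR), Egr1 at 1.45, Nr4a1 at 0.83 and Egr3 at -0.73, where 30.2% of genes were called in either direction. The part of these markers in the difference was not tested.

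Per kilobase of exon, the order of the members in the batch 1 controls ran from Nr4a3, with a median of 11.2 CPM per kb, through Egr3 at 4.01, Npas4 at 3.65, Junb at 2.91, Fos at 2.49, Fosb at 2.18, Nr4a1 at 1.82 and Egr1 at 1.28, to Arc at 0.702 and Egr2 at 0.516. Neighbours from Npas4 to Egr1 were closer together than the spread of each gene over the 6 controls. In the batch 2 controls Nr4a3 was again first, at 16.4 CPM per kb, followed by Fos at 13.6 and Egr1 at 9.04, and Egr2 was again last at 1.48. In the batch 2 DEX libraries Fos, at 19.1 CPM per kb, stood above Nr4a3 at 16.6.

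RNA quality moved with these genes. In batch 2, each group held 2 libraries with a RIN from 1.4 to 2.7, and a fit with group and RIN class compared these 6 with the 12 of RIN 6 or above. All 10 members were higher in the degraded libraries, by 0.72 ± 0.20 for Fos up to 2.38 ± 0.29 for Npas4 on the log2 scale, with Junb at 2.18 ± 0.28 and Arc at 2.04 ± 0.16 (SE, edgeR, adjusted p from 1.45e-09 to 0.00489), where 28.4% of genes were called higher. The pair within each group was uneven. For Fos, Fosb, Nr4a1, Egr2, Egr3 and Nr4a3 the lower value of a pair did not always exceed the libraries of RIN 6 or above. For Fosb it was 14.87 CPM in controls and 25.12 CPM in DEX, below every library of RIN 6 or above (lowest 18.6 and 26.36 CPM). In DEX+RU-486 it was 26.6 CPM, above them all (highest 25.35 CPM). For Fos it was 29.02 CPM in controls (28.62 to 37.71 at RIN 6 or above), 38.42 CPM in DEX (41.32 to 46.7) and 37.11 CPM in DEX+RU-486 (21.44 to 33.89). For Nr4a1 it was 18.79 CPM in controls (20.38 to 25.54), 18.24 CPM in DEX (20.88 to 31.44) and 20.38 CPM in DEX+RU-486 (19.21 to 24.17). For Egr3 it was 10.88 CPM in controls (11.8 to 12.91) and above the range in both treatments. Egr2 in DEX+RU-486 and Nr4a3 in DEX had it within the range. Npas4 was at 291.3, 224.8 and 229.1 CPM in control 20, DEX 26 and DEX+RU-486 31, the library of lower RIN in each pair, and at 58.1, 43.6 and 64.9 CPM in control 19, DEX 25 and DEX+RU-486 32. The neuronal marker sum was also higher in these 6 libraries, at 5003 to 9069 CPM against 2046 to 2353 CPM, so that the rise was not limited to the activity genes.

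Among the libraries of RIN 6 or above in batch 1, with group means removed, every member had a negative Pearson coefficient with RIN. It had a median of -0.842 over the 10 members, and 8 passed a permutation test after adjustment over the 40 relations computed with RIN and depth. For Fos Pearson's r was -0.94 and Spearman's rho -0.874 (n = 16, two-sided permutation test, adjusted p = 0.0004, from the smallest p these permutations can give), and r was -0.891 with the 2 libraries of most extreme RIN set aside. Fosb (r = -0.597, rho = -0.603, permutation adjusted p = 0.0655) and Egr3 (r = -0.337, rho = 0.0647, permutation adjusted p = 0.401) did not pass, and Egr3 turned to 0.47 without the 2 farthest libraries. Log2 depth passed for none of the 10 in either batch.

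In batch 2, over 12 libraries with a narrower range of RIN, 7 members had a negative coefficient and the median was -0.45. Fosb (r = -0.888, rho = -0.916, exact two-sided permutation test, adjusted p = 0.017) and Junb (r = -0.667, rho = -0.776, exact adjusted p = 0.0016) passed. They had r of -0.776 and -0.546 without the 2 farthest libraries. Egr2, Egr3 and Nr4a3 were positive at 0.515, 0.608 and 0.72 and did not pass.

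**Figure D3:**
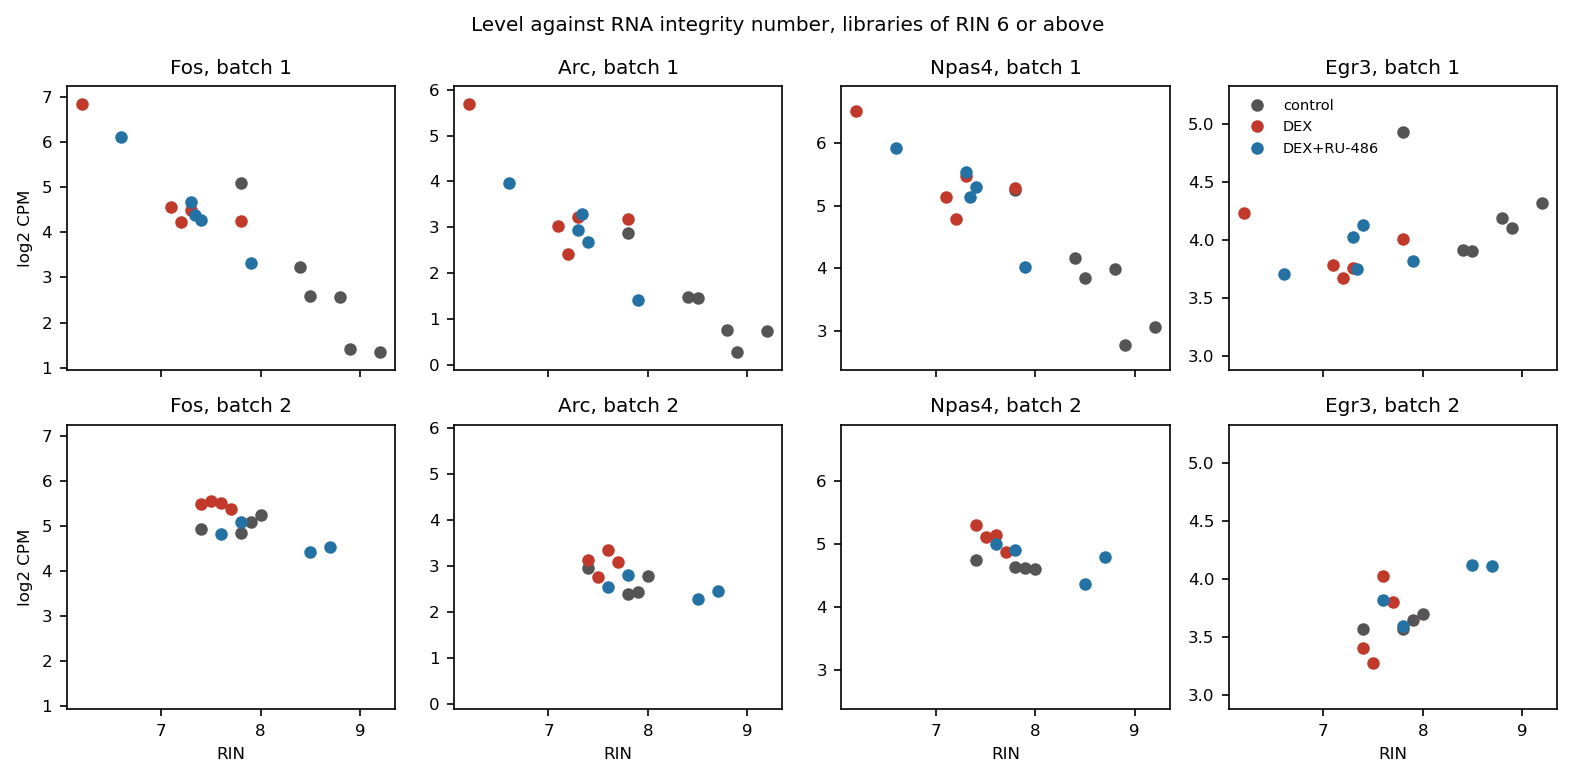
Log2 CPM of Fos, Arc, Npas4 and Egr3 (vertical axis) against RIN (horizontal axis) in the libraries of RIN 6 or above, batch 1 above and batch 2 below. In batch 1 the first 3 genes fall from DEX library 7 at a RIN of 6.2 to control libraries at up to 9.2 and the groups occupy different ranges of RIN, whereas Egr3 shows no such fall.

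With RIN as a covariate in the main fit, the DEX change in batch 1 became -0.54 for Fos, 0.68 for Fosb, 0.37 for Junb, 0.68 for Egr1, 0.58 for Egr2, 0.22 for Arc, 0.05 for Npas4 and -0.16 for Nr4a1. No member was called (edgeR, adjusted p from 0.209 to 0.94, with only Egr3 below an unadjusted 0.05), while 8.62% of all genes still were. DEX+RU-486 behaved alike, with 0 members called and 7.33% of genes. With log2 depth as the covariate the DEX changes ran from 0.74 to 2.12 for the 8 members and none was called (0.393% of genes). The median DEX change over the 10 members fell from 1.571 to 0.8454. Under DEX+RU-486 with that covariate, Fosb, Junb and Egr1 were called (1.98% of genes called higher).

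**Figure D4:**
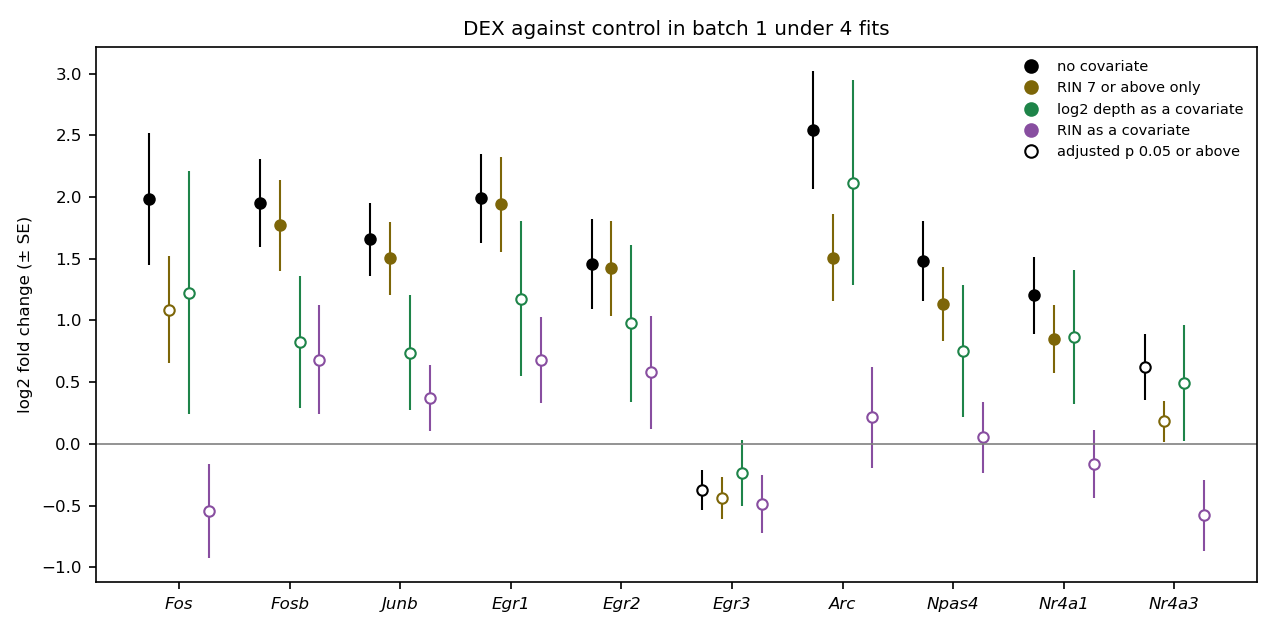
Log2 fold change of each gene for DEX against control in batch 1 (vertical axis, ± SE) under 4 fits; filled points have an adjusted p below 0.05. Keeping only libraries with a RIN of 7 or above leaves 7 genes called (10.4% of all genes were called higher), with Fos at 1.09 not called, whereas RIN as a covariate leaves none called and brings Fos to -0.54.

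The members also moved together from library to library. In batch 1, with group means removed, all 45 pairs had a positive Pearson correlation over 16 libraries, with a median r of 0.725 (median rho 0.771, and 0.635 without the 2 farthest libraries). The permutation test passed for 35 pairs after adjustment over the 45, and 40 pairs had an r of at least 0.5. All pairs of tested genes had a median of 0.01, with 7.85% at 0.5 or above. The tightest pairs were Junb with Npas4 (r 0.969, rho 0.968), Fos with Nr4a1 (0.96 and 0.868) and Fos with Npas4 (0.95 and 0.938), and the loosest was Fosb with Egr3 (0.245 and 0.171). The 9 pairs with Egr3 had a median of 0.507 and the other 36 of 0.814. No pair with Egr3 passed, and their rho ran from 0.0588 with Nr4a1 to 0.297 with Npas4. Without the 2 farthest libraries r with Egr3 was negative for Fos (-0.284), Egr2, Arc, Npas4, Nr4a1 and Nr4a3. It stayed positive for Fosb (0.221), Junb and Egr1, so the positive values of Egr3 rested largely on the farthest libraries. These libraries share the gradient of RIN described above, and its part in the coefficients was not tested.

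In batch 2 the joint movement was weaker. Of 45 pairs, 26 were positive over 12 libraries, with a median r of 0.215 (median rho 0.196), where all gene pairs had a median of 0.003 and 11.7% at 0.5 or above. By exact permutation 3 pairs passed after adjustment, all among Fos, Egr1 and Nr4a1: Egr1 with Nr4a1 at 0.855 (rho 0.86, exact adjusted p = 0.0309), Fos with Egr1 at 0.805 (rho 0.832, exact adjusted p = 0.0434) and Fos with Nr4a1 at 0.724 (rho 0.825, exact adjusted p = 0.00326, from the smallest p these permutations can give). Without the 2 farthest libraries these were 0.8, 0.742 and 0.703. Egr3 ran against most members, with a median of -0.348 over its 9 pairs and -0.784 with Fosb, which did not pass (exact adjusted p = 0.219). When the libraries of low RIN were put back, all 45 pairs in batch 2 were positive with a median r of 0.882. The median rho was 0.569, and the median r was 0.723 without the 2 farthest libraries. Libraries of different RIN classes fall into clusters, so this r describes the classes as well as the libraries within them.

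**Figure D5:**
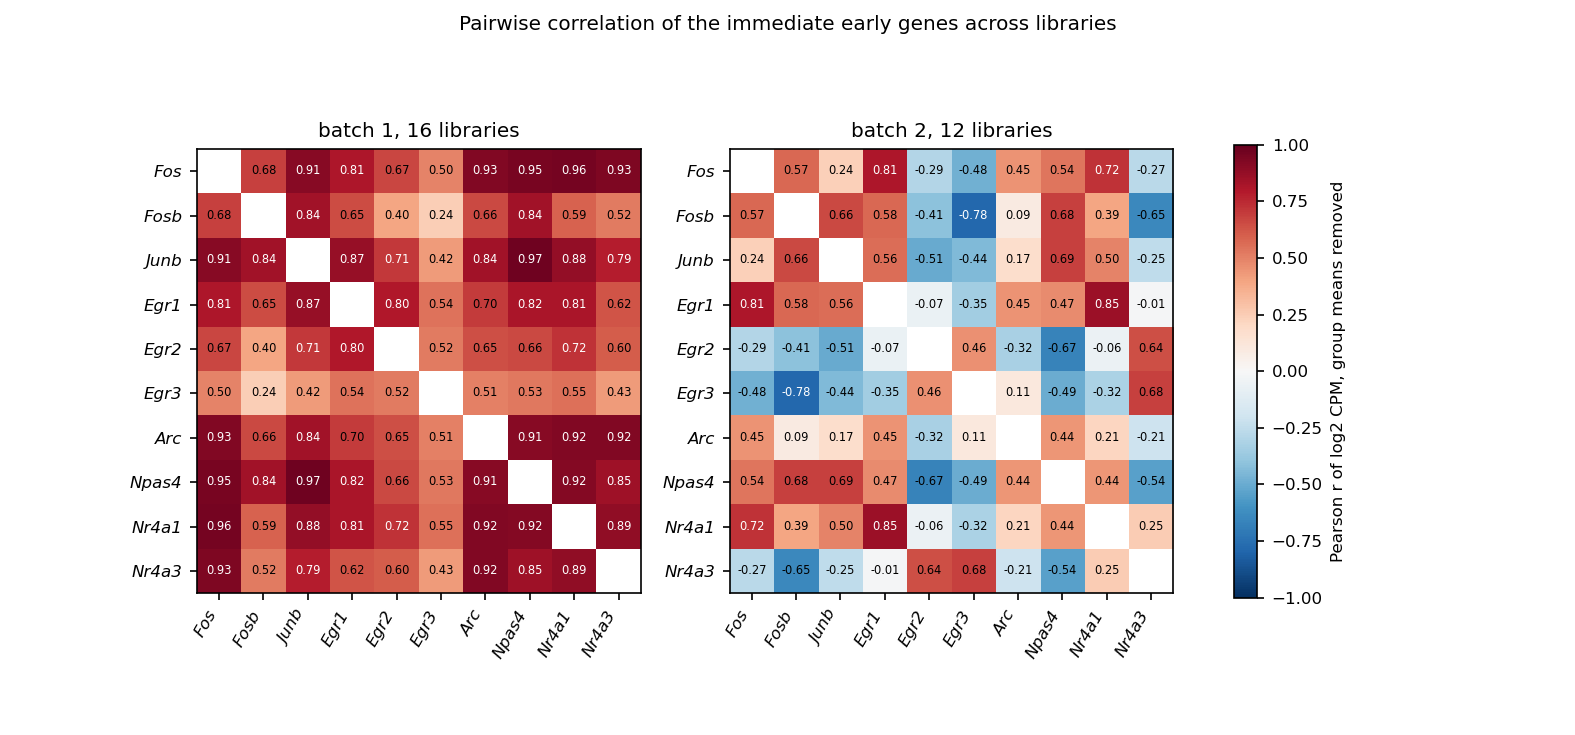
Pearson correlation of log2 CPM between each pair of genes across libraries, group means removed, for batch 1 (16 libraries) and batch 2 (12 libraries); the colour runs from -1 to 1. Batch 1 is positive throughout with a median of 0.725, and in batch 2 Egr2, Egr3 and Nr4a3 are negative with most of the others.

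The genes outside the 10 whose levels were most like the members' mean, by Pearson correlation over 28 libraries with group and batch means removed, were Ccn1 (0.95), Atf3 (0.93), Btg2 (0.918), Phgdh (0.901), Zbtb21 (0.881), Clic4 (0.874), Arhgap12 (0.873), Arid5a (0.873), Nfil3 (0.869) and Trim66 (0.868). For each of the 10 the coefficient was lower in batch 2 than in batch 1. Ccn1, for example, had a coefficient of 0.969 there and 0.112 in batch 2, and Atf3 had 0.953 and 0.181. Among all 20355 genes Npas4 and Fos ranked first and second, as parts of the mean itself, while Egr3 ranked 1503.

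Other genes of the pathway were read in the same comparison, whose groups differed in RIN and depth as given above. Values with RIN or depth as a covariate are given for the members and not for these genes. Of 17 other immediate early transcription factors tested, 12 were higher and 1 lower in DEX than in control in batch 1, where 8.82% of all genes were called higher and 14.6% lower, and their median log2 fold change was 1.48. In the degraded libraries of batch 2, 13 of the 17 were higher, as were 28.4% of all genes. Atf3, a stress-induced member of the ATF family, rose by 2.13 ± 0.47, Jun, the AP-1 partner of Fos, by 1.97 ± 0.20, and Btg2, an antiproliferative gene, by 1.79 ± 0.23 (edgeR, adjusted p = 0.00137, 1.72e-07 and 2.69e-06). The gene that was lower was Klf10, at -0.73 ± 0.20 (edgeR, adjusted p = 0.00819), named after its value was seen. In DEX+RU-486, 10 were higher and 1, again Klf10, was lower, with 7.0% of all genes called higher and 11.6% lower. In batch 2 none was called in either treatment, Ier2 having the smallest p under DEX (0.61 ± 0.26, edgeR, adjusted p = 0.278).

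Activity-regulated effectors act at synapses or in signalling. Of 21, 5 were higher and 1 lower in DEX in batch 1, with a median of 0.33, where 8.82% of all genes were called higher and 14.6% lower. Ptgs2, the inducible cyclooxygenase, rose by 3.52 ± 1.15, Gadd45g, a growth arrest gene, by 1.69 ± 0.42, and Nptx2, a secreted pentraxin that clusters AMPA receptors, by 1.59 ± 0.40 (edgeR, adjusted p = 0.0249, 0.00372 and 0.00436). In DEX+RU-486, where 7.0% of all genes were called higher and 11.6% lower, 1 was higher (Gadd45b, 1.03 ± 0.23) and 1 lower (Lmo4, -0.43 ± 0.15; edgeR, adjusted p = 0.00193 and 0.0389). Of 14 feedback regulators of MAP kinase and EGR signalling, whose median was 0.34, 5 were higher and 1 lower in DEX against the same shares of all genes, among them the RNA-decay factor Zfp36l1 (1.66 ± 0.44), Ier3 (1.50 ± 0.54) and the MAP kinase phosphatase Dusp1 (1.34 ± 0.18; edgeR, adjusted p = 0.00642, 0.0419 and 4.8e-06). In DEX+RU-486, 3 were higher, led by Zfp36 at 1.89 ± 0.39 (edgeR, adjusted p = 0.000995), and none was lower, against the same 7.0% and 11.6% of all genes. No gene of either list was called in batch 2.

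Of 21 upstream factors and kinases, 12 were lower, 2 higher and 7 not called in DEX against control in batch 1, where 14.6% of all genes were called lower and 8.82% higher. In DEX+RU-486, 8 were lower and 2 higher, where 11.6% and 7.0% of all genes were, and the median log2 change under DEX was -0.34. Camk4, a calcium-dependent kinase that acts on CREB, was lower by -0.79 ± 0.16 in DEX, and Mef2c, a factor of the MEF2 family, by -0.79 ± 0.11, whereas Crem, a CREB relative that is itself inducible, rose by 0.89 ± 0.23 (edgeR, adjusted p = 0.000368, 4.58e-06 and 0.00435). In the same comparison 6 of 9 neuronal markers were also lower, among them Rbfox3 at -0.61, Tubb3 at -0.68 and Syt1 at -0.46 (edgeR, adjusted p = 1.29e-05, 0.000161 and 0.000543), and their part in the levels of the upstream genes was not tested. None of the 21 was called in batch 2, where Mapk3 had the smallest p under DEX (-0.45 ± 0.13, edgeR, adjusted p = 0.13).

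As a check of the treatment, 8 textbook targets of the glucocorticoid receptor were looked at. In batch 1, 5 were higher in DEX and none lower, with a median of 0.47 and 8.82% of all genes called higher, led by Zbtb16 (0.91 ± 0.31), Per1 (0.82 ± 0.18) and Tsc22d3 (0.67 ± 0.20; edgeR, adjusted p = 0.031, 0.000984 and 0.0138). Fkbp5, a common readout of receptor activity named here for that reason, was not called, at -0.25. In batch 2 none of the 8 was called under DEX and 3 of 8 changes were above 0, Ddit4 having the smallest p (-0.30 ± 0.15, edgeR, adjusted p = 0.376). In DEX+RU-486, 3 were higher and Fkbp5 was lower in batch 1 (-0.55 ± 0.14, edgeR, adjusted p = 0.00476), with 7.0% of all genes called higher and 11.6% lower, and none was called in batch 2.

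Markers of several cell types were called in the same comparison, DEX against control in batch 1, where 8.82% of all genes were called higher and 14.6% lower. Of 9 neuronal markers 6 were lower in DEX and none higher, and their summed level was 1856 to 2815 CPM in DEX against 2497 to 3265 CPM in controls. Of 6 oligodendrocyte lineage markers 5 were higher, with sums of 455.3 to 736.1 CPM in DEX and 208.7 to 613.9 CPM in DEX+RU-486 against 57.6 to 269.6 CPM in controls. Of 6 astrocyte markers 3 were higher (35.1 to 70.6 against 31.8 to 46.2 CPM), as were 1 of 6 endothelial and pericyte markers and 1 of 4 markers of dividing cells (8.15 to 21.3 against 2.43 to 12.6 CPM). Microglial markers summed to at most 1.29 CPM in DEX, with P2ry12, Tmem119 and C1qa below the filter, and of the fibroblast markers Dcn and Lum were below it and the other 2 were not called. The part of cell composition in the changes of the members was not tested.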

How the data were processed

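RNA-seq was deposited for 36 libraries (12 control, 12 DEX, 12 DEX+RU-486). The authors deposited gene counts, and the submitters' notes name HISAT2 2.1.0, Subread 1.5.0-p2 and GRCm38. The labels describe poly(A) selection, whereas the study's methods name a total RNA library. Of 55492 rows, 55227 matched GENCODE M21, and 5 transgene rows (58 counts in all) were left out. The members and lists were chosen with earlier results of these data known. Counts of 28 libraries with a RIN of at least 6 were fitted in edgeR 4.0.16 (R 4.3.3) by its quasi-likelihood test with TMM factors, one mean per group and batch, a mean count above 5 and Benjamini-Hochberg adjustment over 20355 genes (threshold 0.05). CPM used the TMM factors, and log2 values a prior count of 2. Correlations used 100000 permutations within groups in batch 1 and all 13824 in batch 2. No 2 libraries of a group and batch agreed within sampling noise (lowest chi-square per degree of freedom 6.49 over 90 pairs). Named genes were all members, up to 3 called genes per list by size of change, otherwise the one of smallest p, and the 10 most like genes. DESeq2 1.42.0, other factors, filters, covariates and leaving out each library were alternatives. Those with depth as a covariate or a RIN of 7 were added after seeing the data. The scripts were tested on simulated data.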

Additional observations from a re-analysis of the deposited data

Results flagged for a closer look

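Within groups of 4 to 6 libraries of one batch, single libraries stood far from the rest for 5 members. In 60 groups looked at, 7 values did so, where chance gives about 1 in 20. The groups are not independent, because the members moved together and 1 library can stand out for several. No excess over chance is therefore read from this count. DEX library 7 of batch 1 was highest for Fos (114.4 CPM), Arc (51.2 CPM) and Nr4a3 (249.4 CPM), and DEX+RU-486 library 13 was highest for Nr4a3 (211.8 CPM). These were the libraries of lowest RIN in their groups (6.2 and 6.6). Control library 1 was highest for Egr2 (7.26 CPM) and had the lowest RIN of the batch 1 controls (7.8). In batch 2, DEX library 29 was lowest for Junb (10.9 CPM) and DEX library 28 lowest for Egr2 (3.25 CPM).

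The change of Egr1 in DEX+RU-486 against control differed between the batches by -2.12 on the log2 scale, by a test of the difference itself (edgeR, adjusted p = 0.0396), where 0.639% of genes were called lower. The call was lost in 14 of 28 fits that left out a library, with RIN as a covariate and with all 36 libraries. Mean Egr1 levels in batches 1 and 2 were 10.2 and 41.9 CPM in controls, and 37.2 and 34.8 CPM in DEX+RU-486 (RIN of 6 or above). The batches thus differed mainly in their controls.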

How the results depend on the processing

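No paired analysis was possible because the groups share no replicate numbers. Counts of members called are given in the order of the comparisons, with the reported count first and, in brackets, the number of all genes called. As reported, these were 4777 for DEX in batch 1, 3784 for DEX+RU-486 in batch 1, 3916 and 1633 for the means of DEX and DEX+RU-486, 866 and 389 for their batch differences, 6725 for the controls, and 78 in batch 2 and 28 on average for DEX+RU-486 against DEX. With RIN as a covariate, DEX in batch 1 went from 8 to 0 (1754), DEX+RU-486 in batch 1 from 8 to 0 (1492), the DEX mean of the batches from 8 to 0 (1381), the DEX+RU-486 mean from 1 to 0 (1420), the DEX+RU-486 batch difference from 1 to 0 (3) and the control batch difference from 6 to 3 (6144). With log2 depth as a covariate DEX in batch 1 and the DEX mean went from 8 to 0 (80 and 12), DEX+RU-486 in batch 1 from 8 to 3 (1427) and its mean from 1 to 0 (112). With all 36 libraries both means went to 0, with one mean per group and batch (352 for DEX, 57 for DEX+RU-486) or with batch as a covariate (5 and 0), and DEX+RU-486 in batch 1 went to 5 (1163) and its batch difference to 0 (17). Without a batch term the DEX mean went to 5 (2377) and the DEX+RU-486 mean to 0 (639). Fits of 1 batch gave 5 for DEX+RU-486 in batch 1 (2741) and 3 for DEX+RU-486 against DEX in batch 2 (317). With no filter on low counts the DEX+RU-486 mean gave 9 (1770), its batch difference 8 (781), the DEX batch difference 7 (1303), and DEX+RU-486 against DEX 2 in batch 2 (662) and 2 on average (359). With at least 10 counts in every library the DEX+RU-486 mean and batch difference each gave 3 (1628 and 395), with a RIN of 7 or above each gave 2 (2227 and 758), and for that difference DESeq2 gave 3 (732) and upper-quartile factors 2 (251). Leaving out 1 library gave 7 to 9 for DEX in batch 1 (3477 to 5081), 5 to 9 for DEX+RU-486 in batch 1 (2427 to 4113), 6 to 8 and 0 to 7 for the means of DEX (3021 to 4164) and DEX+RU-486 (940 to 2004), 0 to 7 and 0 to 6 for their batch differences (158 to 1113 and 58 to 865), and 5 to 9 for controls (5025 to 7180). The RIN class comparison gave 10 under each alternative run.

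Signs turned with RIN as a covariate for DEX in batch 1 (Fos -0.54, Nr4a1 -0.16), DEX+RU-486 in batch 1 (Fos -0.57, Arc -0.29, Npas4 -0.025, Nr4a1 -0.18) and the DEX mean (Fos -0.28, Nr4a1 -0.069), and with all 36 libraries for Egr3 in the control batch difference (0.18). Of pairs of members passing in batch 2, 3 became 45 with all libraries and 16 with group means kept. With group means kept, members related to RIN in batch 2 went from 2 to 8, and those related to depth in batch 1 from 0 to 8. The cause of these shifts was not tested. Of 1200 values of single members under alternatives, 983 kept direction and side of the threshold, 74 that were not called changed sign, 79 lost their call, 55 gained one and the 9 above were reversed.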
